A study of Mus musculus with 98 samples.

Results

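The end structures left at the Jk1 break by loss of the histone variant H2AX were compared directly with those left by loss of 53BP1. The comparison used the 3 deposited Jk1 tables of Lig4-/- H2AX-/- line 5, Lig4-/- H2AX-/- line 8 and Lig4-/- 53BP1-/- line B, which were chosen by genotype and break from the sample labels. They hold 9 of the 49 sequenced libraries of the series and 3 of its 17 tables. The study captured the ends of site-specific breaks in G1-arrested mouse pre-B cells of Abelson-transformed lines. The method, HCoDES (hairpin capture of DNA end structures), joins the strands of a broken end with a single-stranded DNA ligase and sequences the product after bisulfite treatment, so that each read shows where both strands stopped.

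All lines in these comparisons lacked DNA ligase IV (gene Lig4), controls included. The break was made by the RAG recombinase at Jk1 (gene Igkj1), a joining segment of the immunoglobulin kappa light chain locus. Line 5 carries the label CJ 48, was sequenced in run 4 and has no time in its sample titles. Line 8 is CJ 148, from run 2, at 48 h. The 53BP1-deficient line B is CJ 6, from run 4, also at 48 h. Lig4-/- lines A and B, both from run 4 at 48 h, served as the background without a second deletion. The titles of Lig4-/- line B carry a tag, shNT, that the labels do not explain. The tables do not say whether an end is a coding end, which keeps the gene segment, or a signal end, which keeps the recombination signal.

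Ligase IV seals breaks in non-homologous end joining, the main route by which lymphocytes join RAG breaks in G1. Without it the ends remain exposed to nucleases. H2AX (gene H2ax) is phosphorylated by the kinase ATM in chromatin around a break and helps to hold repair factors there. 53BP1 (gene Trp53bp1) binds modified histones next to breaks and recruits factors that restrain resection, the removal of the strand that ends 5' at the break. Loss of either protein is known to leave ends of G1 cells open to resection by the nuclease CtIP. A 3' overhang remains where the 5'-ending strand was cut back further than its partner, and a 5' overhang where the 3'-ending strand was cut back further.

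Reads numbered 170853 for H2AX-deficient line 5, 157970 for line 8 and 258051 for 53BP1-deficient line B. These fell into 685, 600 and 1070 end structures, each defined by the loss from both strands. Each table pools 3 libraries, so the cell line was the replicate, with 2 lines against 1. An exact permutation test over lines could not go below p = 0.333 in this design, and no such test was used. Shares were set against the gap between the 2 H2AX-deficient lines instead. A difference was called when 53BP1-deficient line B lay on the same side of both lines, passed Fisher's exact test on reads, two-sided, against each (Benjamini-Hochberg adjusted p under 0.05), and lay further from the nearer line than the lines lay from each other. PCR reads are not independent molecules, so Fisher's test and the exact Clopper-Pearson 95% intervals cover counting error only. For classes of resected ends no interval in these 3 tables was wider than 0.267 points on either side. Nothing in the labels says that the libraries of a line came from separate cultures.

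With either loss most ends at the break were resected, to a similar degree at a threshold of 10 nt. Resected ends, here those that lack at least 10 nt of the 5'-ending strand, made up 87.8% of reads (95% interval 87.6 to 87.9) in H2AX-deficient line 5, 83.9% (83.7 to 84.1) in line 8 and 84.6% (84.5 to 84.8) in 53BP1-deficient line B. The 53BP1-deficient line thus lay between the H2AX-deficient lines, and the share was not called different. The direction of the difference to their mean changed with the threshold, from -1.21 points at 10 nt to 0.756 at 20 nt and 5.35 at 50 nt. At 50 nt the shares were 72.1%, 77.3% and 80.1%, with the 53BP1-deficient line above both, though by less than the gap between them. The same share at 10 nt was 32.4% and 54.4% in Lig4-/- lines A and B. At least 100 nt were lost in 56.2% of reads in line 5, 64.5% in line 8 and 67.0% in 53BP1-deficient line B. The median 5'-strand loss of resected ends was 123 nt in line 5, 135 nt in line 8 and 134 nt in 53BP1-deficient line B. The 3'-ending strand was lost over a like distance, with medians of 125, 137 and 138 nt in the same order. In the amount lost, line 8 and 53BP1-deficient line B were close to each other and line 5 was somewhat shorter.

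**Figure D1:**
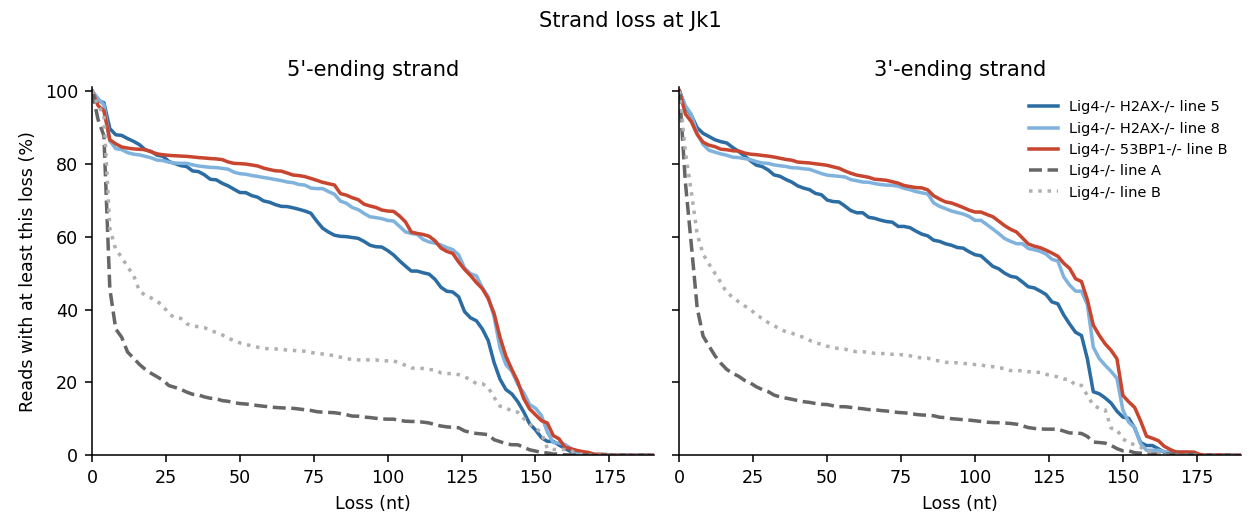
Share of Jk1 reads (percent, y axis) whose 5'-ending strand (left) or 3'-ending strand (right) had lost at least the number of nt on the x axis, with 1 line for each pooled table. The curves of H2AX-deficient line 8 and 53BP1-deficient line B run close together, H2AX-deficient line 5 falls below them between about 30 and 150 nt, and both Lig4-/- lines lie lower below 100 nt.

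Among resected ends, 53BP1-deficient line B held fewer ends with short overhangs than either H2AX-deficient line. The largest class in all 3 tables was 5' overhangs of 1 to 4 nt. It made up 32.2% of resected ends in line 5, 33.8% in line 8 and 22.7% in 53BP1-deficient line B. The 53BP1-deficient line was lower by 9.54 points or more, against a gap of 1.61 points between the H2AX-deficient lines, and the class was called lower. The Lig4-/- lines held 23.4% and 19.5% of this class, so the 53BP1-deficient line lay between them and the H2AX-deficient lines above both. Class shares of all resected ends in the Lig4-/- lines are not matched for loss, since their median 5'-strand losses were only 36 and 83 nt. The order changed with loss. At 10 to 39 nt the class held 14.6% and 17.0% in the Lig4-/- lines and 23.2% in 53BP1-deficient line B. From 100 to under 130 nt it held 40.7% and 25.4%, against 17.6%.

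Short 3' overhangs, of 1 to 4 nt, made up 12.6% of resected ends in line 5, 16.2% in line 8 and 6.202% in 53BP1-deficient line B. The smaller of the 2 gaps, 6.35 points, was beyond the 3.69 points between the H2AX-deficient lines, and this class was also called lower. It was the largest class of the Lig4-/- lines, at 33.6% and 33.8%. Blunt ends were not separated: line 5 held 3.15%, line 8 6.26% and 53BP1-deficient line B 3.33%. Blunt ends and overhangs of up to 4 nt of either polarity together made up 47.9% in line 5, 56.3% in line 8 and 32.2% in 53BP1-deficient line B. That total was called lower, by 15.7 points or more.

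Long overhangs were more frequent in the 53BP1-deficient line, on both polarities in the longest class. 5' overhangs of 20 nt or more made up 7.44% of resected ends in line 5, 4.24% in line 8 and 12.9% in 53BP1-deficient line B, where the class was called higher (1.73-fold over the nearer line). 3' overhangs of 20 nt or more made up 6.35%, 6.50% and 11.8% in the same order and were called higher (1.81-fold). The H2AX-deficient lines differed by 0.152 points in this class. The Lig4-/- lines held 3.2% each of 3' overhangs that long. 5' overhangs of 5 to 9 nt were also called higher, at 14.1% in line 5, 12.9% in line 8 and 19.2% in 53BP1-deficient line B. That call was lost when each structure was counted once, where the mean difference was 0.378 points instead of 5.70, and under 3 other alternatives. The call of 5' overhangs of 20 nt or more was lost among ends with 50 nt of loss or more.

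The remaining classes did not separate the genotypes beyond the spread of the lines. 5' overhangs of 10 to 19 nt held 3.50% in line 5, 10.2% in line 8 and 15.7% in 53BP1-deficient line B. The 53BP1-deficient line was highest, but the gap to line 8 (5.55 points) was smaller than the gap between the H2AX-deficient lines (6.67 points). 3' overhangs of 5 to 9 nt held 10.3%, 6.21% and 3.27%, with the 53BP1-deficient line lowest and again within the gap between lines. 3' overhangs of 10 to 19 nt held 10.4%, 3.65% and 4.90%, with the 53BP1-deficient line between the others. In all, 5 of the 9 classes were called. Each called class had an adjusted Fisher's exact p that was returned as 0, below the smallest number the software holds.

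Joined at 10 nt, the 2 polarities behaved differently among all resected ends, without matching for loss. 5' overhangs of 10 nt or more made up 10.9% of resected ends in line 5, 14.4% in line 8 and 28.6% in 53BP1-deficient line B, a gap of 14.2 points or more that was called (1.99-fold over line 8). 3' overhangs of 10 nt or more made up 16.7% in line 5, 10.2% in line 8 and 16.7% in 53BP1-deficient line B, and the 53BP1-deficient line could not be told from line 5 (adjusted Fisher's exact p = 0.829). All 5' overhangs together were called higher, at 57.3%, 61.1% and 70.5%. In Lig4-/- lines A and B, 5' overhangs made up 33.97% and 35.5%.

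**Figure D2:**
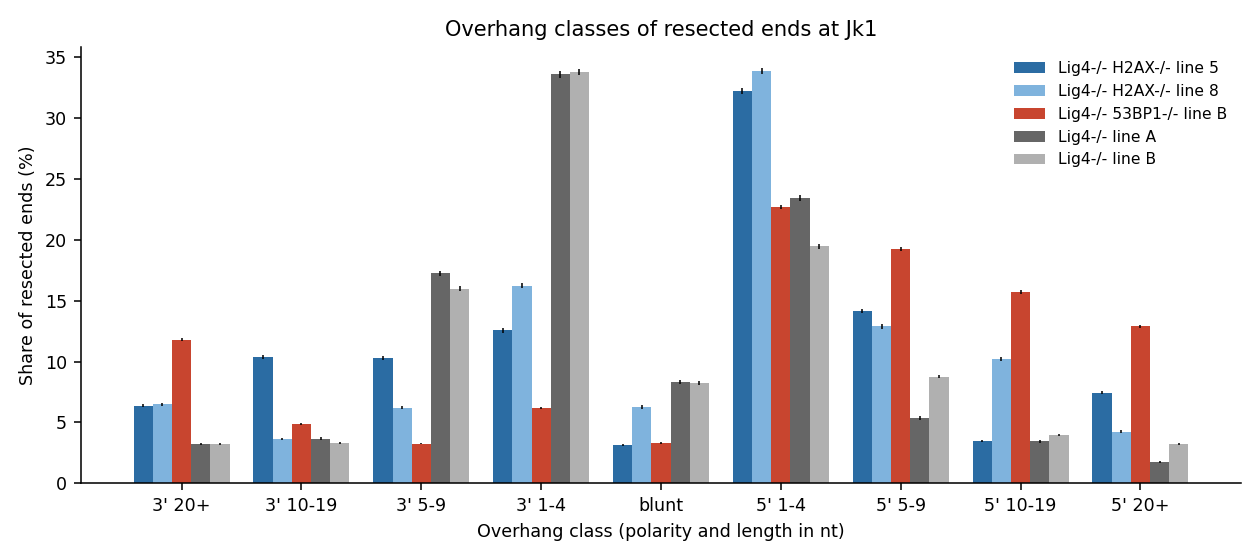
Share of resected Jk1 ends (percent, y axis) in each of 9 overhang classes (polarity and length in nt, x axis) for the 5 pooled tables, with exact Clopper-Pearson 95% intervals as error bars. The 53BP1-deficient bars are below both H2AX-deficient bars for overhangs of 1 to 4 nt and above both for 5' overhangs of 5 nt or more and 3' overhangs of 20 nt or more.

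Line 8 came from another sequencing run than the other 2 tables, so run and line cannot be told apart within the H2AX-deficient genotype. Within run 4, line 5 alone against 53BP1-deficient line B gave differences, 53BP1-deficient minus H2AX-deficient, of -6.35 points for 3' overhangs of 1 to 4 nt and -9.54 points for 5' overhangs of 1 to 4 nt. They were 5.07 points for 5' overhangs of 5 to 9 nt, 5.45 points for 5' overhangs of 20 nt or more and 5.44 points for 3' overhangs of that length. Their direction is fixed by the rule for calling a class, so the part of the run in these differences was not tested. The table of line 8 also listed no 3'-strand loss above 166 nt and no overhang longer than 71 nt. Within that range, which left out 2.09% of reads in line 5 and 2.17% in 53BP1-deficient line B, the mean difference in 3' overhangs of 20 nt or more was 4.81 points.

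Single lengths show the same shift in part. The most frequent overhang in each of the 3 tables was a 5' overhang of 4 nt, at 13.7% of resected ends in line 5, 11.9% in line 8 and 6.85% in 53BP1-deficient line B. 2-nt 5' overhangs held 8.28%, 8.93% and 5.39% in the same order, while 3-nt 5' overhangs held 4.59%, 4.66% and 5.16%. 2-nt 3' overhangs held 3.71% in line 5, 5.31% in line 8 and 0.525% in 53BP1-deficient line B. 9-nt 5' overhangs held 0.662%, 3.29% and 4.73%. The median 5' overhang was 4 nt in both H2AX-deficient lines, as in both Lig4-/- lines, and 8 nt in 53BP1-deficient line B. The median 3' overhang was 8 nt in line 5, 5 nt in line 8 and 17 nt in 53BP1-deficient line B, against 4 nt in both Lig4-/- lines. These medians are a description without a test. With each structure counted once, whatever its reads, the median 5' overhang was 5, 5 and 9 nt and the median 3' overhang 7, 6 and 11 nt.

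**Figure D3:**
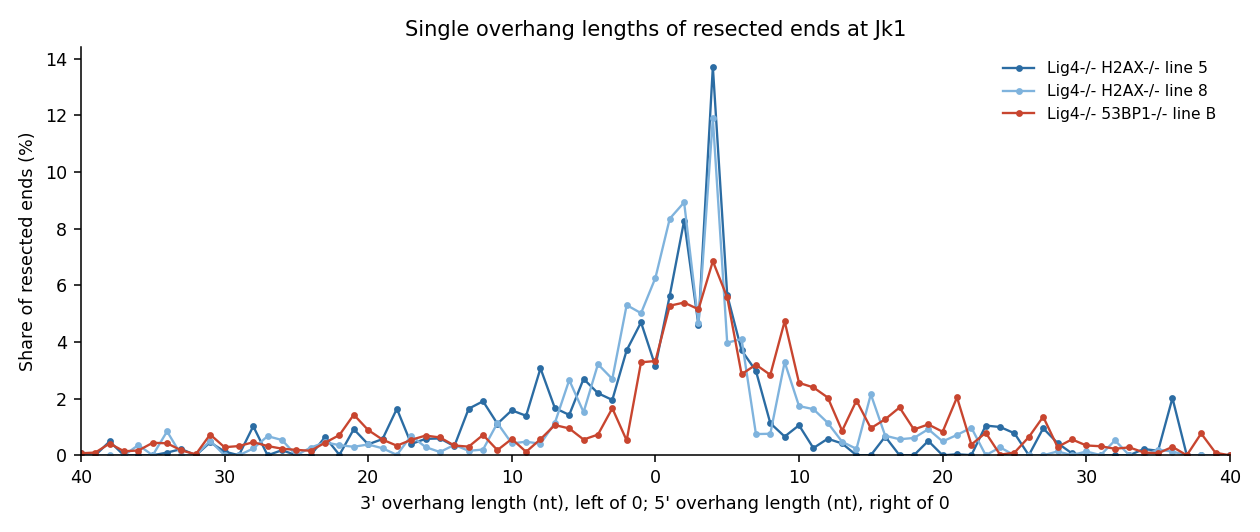
Share of resected Jk1 ends (percent, y axis) at each single overhang length (nt, x axis, 3' overhangs to the left of 0 and 5' overhangs to the right) in the 3 pooled tables. The peak at 4-nt 5' overhangs reaches 13.7% and 11.9% in the H2AX-deficient lines and 6.85% in 53BP1-deficient line B. For 5' overhangs of 9 to 20 nt, the values of 53BP1-deficient line B lie above most of theirs.

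The comparison was repeated at matched loss, since an overhang can be longer only where a strand was lost for longer. In each of 5 ranges of 5'-strand loss from 10 nt upwards, 53BP1-deficient line B exceeded both H2AX-deficient lines in 5' overhangs of 10 nt or more and fell short of both in those of 1 to 4 nt, and each difference was called in 4 of the 5. Both were called together in 3. At 10 to 39 nt of loss, 5' overhangs of 10 nt or more held 2.52% of ends in line 5, 5.42% in line 8 and 26.8% in 53BP1-deficient line B. From 100 to under 130 nt they held 17.6%, 15.1% and 44.7%. Their difference was not called at 40 to 69 nt, where they held 3.16%, 11.9% and 17.2%. That of 1 to 4 nt was not called at 70 to 99 nt, where the class held 21.3%, 27.3% and 16.3%. 3' overhangs of 20 nt or more lay above both H2AX-deficient lines in 4 of the 5 ranges, 3 of them called, and lay between them from 100 to under 130 nt. 5' overhangs of 5 to 9 nt lay above both lines in 2 of the 5 ranges, with 1 called, at 40 to 69 nt (4.80%, 8.98% and 23.9%). At 10 to 39 nt they lay below both, without a call (20.6%, 20.8% and 20.3%).

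**Figure D4:**
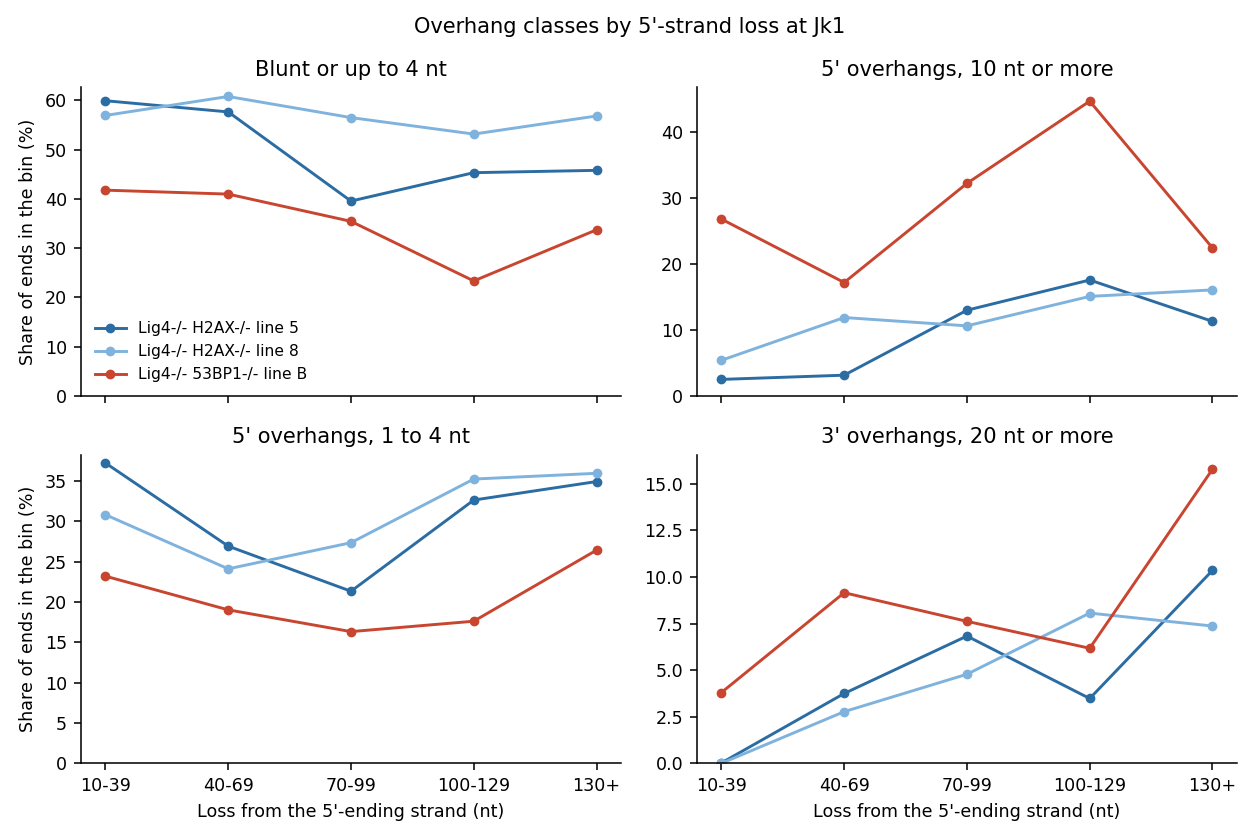
Share of ends (percent, y axis) in 4 overhang classes within ranges of 5'-strand loss (nt, x axis) for the 3 pooled Jk1 tables. 53BP1-deficient line B lies below both H2AX-deficient lines in every range for blunt or short overhangs and above both in every range for 5' overhangs of 10 nt or more, while its 3' overhangs of 20 nt or more meet theirs between 70 and 130 nt.

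When every table was weighted to one common distribution of 5'-strand loss in 20-nt ranges, 5' overhangs of 10 nt or more held 11.2% in line 5, 14.3% in line 8 and 28.4% in 53BP1-deficient line B. Under the same weights 5' overhangs of 1 to 4 nt held 31.8%, 33.1% and 22.7%, and those of the 3' class from 20 nt upwards 7.72%, 6.25% and 11.3%. All 3 differences remained beyond the gap between the H2AX-deficient lines. The difference in 3' overhangs of 1 to 4 nt did not: they held 11.2%, 16.5% and 6.98%, a smaller gap of 4.17 points against 5.34 points between the lines. With weights on 3'-strand loss instead, 5' overhangs of 5 to 9 nt and of 20 nt or more also fell within the gap between lines. 5' overhangs of 10 nt or more did not (14.0%, 15.2% and 25.2%). 3' overhangs of 10 nt or more then held 15.0%, 10.5% and 19.3%. There 53BP1-deficient line B lay above both lines, by 4.26 points or more against 4.52 points between them.

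The long overhangs of 53BP1-deficient line B were spread over many structures. Its 5' overhangs of 10 nt or more came from 238 structures, against 65 in line 5 and 69 in line 8, and the most abundant of them held 3.88% of the class, against 10.1% and 6.25%. Weighted by their reads, these were equivalent to 87.5 structures of equal share, against 17.9 and 31.7. Its 3' overhangs of 20 nt or more came from 153 structures, against 43 and 41. The 53BP1-deficient table also held the most reads of the 3, and the number of listed structures grows with depth, so these numbers were not tested. Long overhangs were less often than short ones in structures listed in all 3 tables. Sharing between pairs of tables was not measured by class. Structures listed in all 3 tables held 66.1%, 57.7% and 44.6% of 5' overhangs of 1 to 4 nt in line 5, line 8 and 53BP1-deficient line B, but 13.5%, 15.7% and 4.08% of 5' overhangs of 10 nt or more. For 3' overhangs of 10 nt or more the same shares were 1.13%, 3.42% and 1.29%.

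Single structures were tested where at least 1 of the 3 tables held 10 reads or more, which left 1234 of them. A structure was called when both adjusted Fisher's exact p were under 0.05 on the same side and its share differed at least 2-fold from both H2AX-deficient lines. Of those tested, 507 were called higher (41.1%) and 71 lower (5.75%) in 53BP1-deficient line B. Those called higher held 59.4% of reads in 53BP1-deficient line B, 0.583% in line 5 and 0.984% in line 8. Those called lower held 1.26%, 15.6% and 12.4% in the same order. With only 1 53BP1-deficient line, structures particular to that line cannot be told apart from those of the genotype. With only line 8 on the H2AX side 350 of 993 tested were lower, and with only line 5 347 of 992. A structure called lower then needs to be present in 1 line instead of 2, and the part of this in the larger numbers was not tested. Every table held many structures of its own. 302 were listed only in line 5 and held 34.5% of its reads, 259 were listed only in line 8 with 33.9%, and 615 only in 53BP1-deficient line B with 41.6%. The 157 structures listed in all 3 tables held 41.2%, 44.9% and 32.9% of reads. Overhang lengths in the called lists come from the same reads as the classes. A structure called lower has to occur in both H2AX-deficient lines, so a long overhang found in only 1 of them could not enter that list. A structure called higher has to occur in 53BP1-deficient line B only. The 2 lists thus differ in what can enter them, and their overhang lengths are not a test of the genotypes. Of the structures called higher, 295 (58.2%) had overhangs of 10 nt or more, against 3 (4.23%) of those called lower and 511 (41.4%) of all tested. Their median overhang length was 12 nt, 3 nt and 7 nt in that order.

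**Figure D5:**
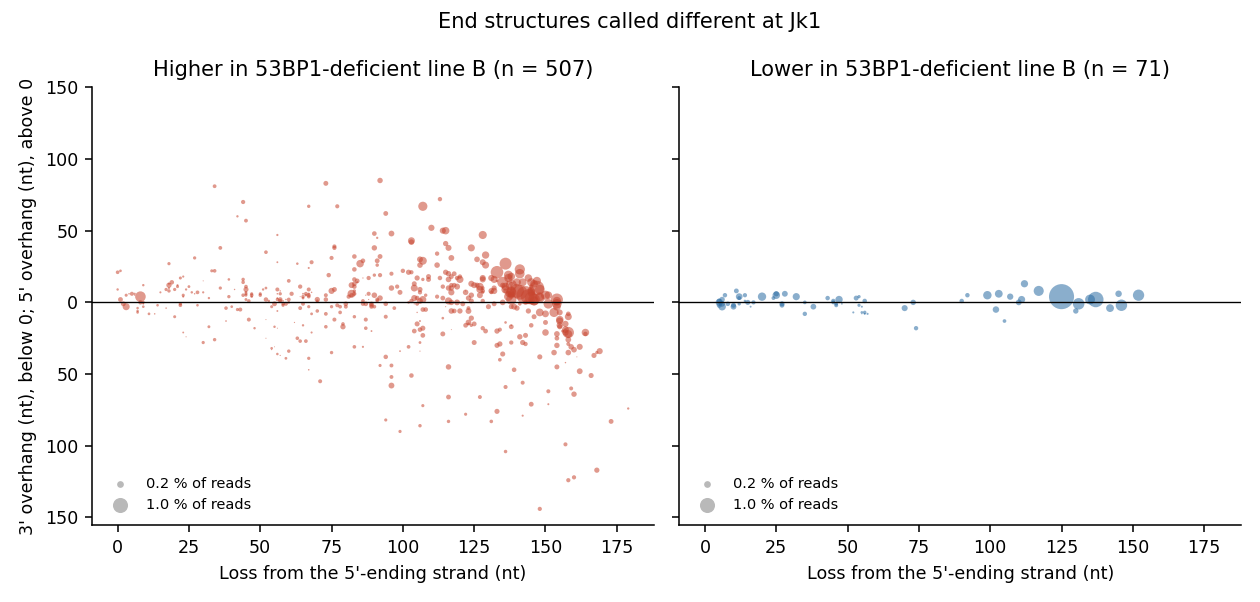
End structures called higher (left) or lower (right) in 53BP1-deficient line B than in both H2AX-deficient lines, by 5'-strand loss (nt, x axis) and overhang (nt, y axis, 5' overhangs above 0 and 3' overhangs below). Point area is proportional to the share of reads, that of 53BP1-deficient line B on the left and the mean of both H2AX-deficient lines on the right. The structures called lower lie close to the blunt line, and those called higher spread to both polarities.

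The structures that led the H2AX-deficient tables were short 5' overhangs deep in the flank. A 4-nt 5' overhang, in which the 5'-ending strand lacked 135 nt and the 3'-ending strand 139 nt, held 3.53% of reads in line 5, 3.46% in line 8 and 1.89% in 53BP1-deficient line B. It was among the 3 most abundant in each table, and its 1.83-fold difference was below the 2-fold minimum. In the Lig4-/- lines it held 0.882% and 1.32%. A second 4-nt 5' overhang, in which the 5'-ending strand lacked 125 nt, held 3.06%, 2.48% and 0.528% in the same order. It was called lower, by 4.69-fold against the nearer line, and was the largest difference of any called structure in points. Losses of 137 and 138 nt, a 1-nt 5' overhang, gave the leading structure of line 8 at 3.73%, with 1.03% in line 5 and 1.59% in 53BP1-deficient line B, which lay between the H2AX-deficient lines.

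The structures at the unresected end differed less. The end without loss on either strand held 2.30% of reads in line 5, 1.68% in line 8 and 3.29% in 53BP1-deficient line B, where it was the most abundant structure. The blunt end with 4 nt lost from both strands held 2.17%, 3.59% and 2.78%, so the 53BP1-deficient line again lay between the others. That structure held 12.1% and 7.49% in the Lig4-/- lines. Among the other leading structures, a 9-nt 5' overhang with losses of 123 and 132 nt held 0.5695%, 1.18% and 1.55%, and a 2-nt 5' overhang with losses of 145 and 147 nt held 1.21%, 0.205% and 0.420%.

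Other structures called lower in 53BP1-deficient line B lay close to these stops. A 2-nt 5' overhang with losses of 137 and 139 nt held 0.555% in line 5, 1.56% in line 8 and 0.0546% in 53BP1-deficient line B, a 10.2-fold difference to the nearer line. A 2-nt 3' overhang with losses of 146 and 144 nt held 0.469% and 0.686% and had no read in 53BP1-deficient line B, at least 404-fold lower against a floor of 3 reads in the table. A 1-nt 3' overhang with losses of 131 and 130 nt held 0.725%, 0.446% and 0.0446%. A 5-nt 5' overhang with losses of 152 and 157 nt held 0.795% and 0.329% in the H2AX-deficient lines and 2 reads in 53BP1-deficient line B.

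Of the 5 structures called higher by the most points in 53BP1-deficient line B, 4 had the 3'-ending strand stopped at 148 nt of loss. Where the 5'-ending strand lacked 143 nt, a 5-nt 5' overhang, the share was 1.46% in 53BP1-deficient line B, 0.256% in line 8 and no read in line 5. With 144 nt, a 4-nt 5' overhang, it was 1.00%, with 2 reads in line 5 and none in line 8. With 141 nt and with 140 nt it was 0.958% and 0.863%, against 0.186% and 0.0878% in line 5 and 0.0437% and 0.0038% in line 8. The fifth, a 10-nt 5' overhang with losses of 147 and 157 nt, held 0.939%, with 3 reads in line 5 and none in line 8. The leading structures of the called classes followed the direction of their class only in part. A 21-nt 3' overhang with losses of 158 and 137 nt held 0.562% in 53BP1-deficient line B and had no read in either H2AX-deficient line. In line 5 its class was led by a 28-nt 3' overhang with losses of 166 and 138 nt. That structure held 0.523% in line 5 and had no read in line 8 or 53BP1-deficient line B. The leader in line 8, a 27-nt 3' overhang with losses of 163 and 136 nt, held 0.341%. It held 0.157% in 53BP1-deficient line B and had no read in line 5. A 21-nt 5' overhang with losses of 145 and 166 nt held 0.706% in 53BP1-deficient line B and 0.5995% in line 8. It led its class in both tables and had no read in line 5. In line 5 that class was led by a 36-nt 5' overhang with losses of 118 and 154 nt, at 0.967%. The share of that structure in 53BP1-deficient line B was 0.253%. Among 5' overhangs of 5 to 9 nt, that with losses of 139 and 148 nt led line 8 at 1.24%. It held 0.866% in 53BP1-deficient line B and 0.00234% in line 5. 3' overhangs of 1 to 4 nt, called lower as a class, were led in 53BP1-deficient line B by losses of 151 and 150 nt. That structure was itself called higher, at 0.405% against no read in line 5 and 0.00443% in line 8.

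Stops of the 3'-ending strand at 148 nt held 8.92% of all reads in 53BP1-deficient line B, 4.71% in line 8 and 0.849% in line 5. It was the most used 3'-strand stop of the 53BP1-deficient table. There the stop was paired with 18 different 5'-strand stops, the main one holding 16.4% of its reads, against 13 and 26.3% in line 8 and 6 and 67.2% in line 5. The 3'-strand stop at 139 nt held 5.01% in line 5, 5.44% in line 8 and 2.66% in 53BP1-deficient line B. Its main partner was the same in all 3, the 5'-strand stop at 135 nt, with 70.6%, 63.6% and 71.1% of the reads of that stop. At 136 nt of 3'-strand loss the pairing differed between the H2AX-deficient lines: 4.05% of its reads in line 5, 50.5% in line 8 and 50.6% in 53BP1-deficient line B had overhangs of 10 nt or more. These shares were described without a test.

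By preferred stops the tables did not group by genotype. The overlap of 2 tables is the sum, over stops or structures, of the smaller of the 2 shares. For 5'-strand stops it was 65.6% between the H2AX-deficient lines, 62.2% between line 5 and 53BP1-deficient line B, and 68.9% between line 8 and 53BP1-deficient line B. For 3'-strand stops it was 64.7%, 62.5% and 71.6%. For whole structures it was 28.6%, 24.2% and 32.4%, so in each of these measures 53BP1-deficient line B overlapped more with line 8 than line 5 did. For overhang lengths alone the order was different, with 74.6% between the H2AX-deficient lines against 67.4% and 70.3%.

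Ends that lacked under 10 nt of the 5'-ending strand, the complement of the resected ends, showed fewer called classes. They were 20872 reads in line 5, 25450 in line 8 and 39684 in 53BP1-deficient line B. Blunt ends held 42.8%, 34.1% and 42.2% of them, 3' overhangs of 1 to 4 nt 40.4%, 35.5% and 33.0%, and 5' overhangs of 1 to 4 nt 14.0%, 26.9% and 19.8%. None of these 3 classes was called. 5' overhangs of 5 to 9 nt were called higher, at 2.41%, 2.24% and 3.23%. 5' overhangs of 20 nt or more were also called higher, at 0.602% of such ends in 53BP1-deficient line B, against 0.0144% in line 5 and no read in line 8. That call rests on few ends, since 2 structures, with 5' overhangs of 21 and 22 nt, held 235 of its 239 reads. A 3' overhang of 10 nt or more cannot occur among these ends by construction.

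The same contrast was available at a chromosomal recombination substrate, where 53BP1-deficient line C could be added. Line C came from run 6, and its labels give no time and no CJ number. Weighted by reads, its resected ends there were equivalent to only 36.1 structures of equal share. The other substrate tables had 193 (53BP1-deficient line B), 102 (line 5) and 202 (line 8). 5' overhangs of 10 nt or more made up 3.62% of resected ends in H2AX-deficient line 5 and 8.03% in line 8, against 22.7% in 53BP1-deficient line B and 26.6% in line C. All 4 pairs passed Fisher's exact test, and the smaller gap, 14.7 points, was beyond the largest gap of 4.41 points within a genotype. Blunt and short ends, of up to 4 nt of overhang, were lower in both 53BP1-deficient lines (37.7% and 29.6%) than in both H2AX-deficient lines (49.98% and 59.9%). The longest 3' overhangs, from 20 nt upwards, were not separated there, at 10.6% and 7.78% in the H2AX-deficient lines and 11.3% and 6.03% in the 53BP1-deficient lines. All 5' overhangs together, called higher at Jk1, were also not separated, at 32.6% and 42.5% against 60.9% and 40.2% in the same order. The class of 5' overhangs of 1 to 4 nt was not separated either, because 53BP1-deficient line B held 22.1% and line C 5.82%, against 20.5% and 26.4%. For 5' overhangs of 5 to 9 nt, 53BP1-deficient line B held 16.1% and line C 7.78%, against 8.45% and 8.05%, so they were not separated.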

How the data were processed

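For each cell line and break the authors deposited whole-number read counts by end structure, not normalised, in a table that pools 3 libraries (1 for the KpnI control). Beside the count, the deposited tables hold a position and an overhang in other units, read here as nt. The position was taken as the stop of the 5'-ending strand, the position minus the overhang as that of the 3'-ending strand, and loss as the position minus 2, the lowest position. A positive overhang was taken as 3', because 99.2% of 307425 KpnI control reads had an overhang of 4 nt and KpnI leaves a 3' overhang. Not given in the sources used here: aligner, read filters and genome build. Coordinates are therefore not printed. Gene symbols come from a RefSeq table. Loss past the amplified window goes unseen.

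Shares and tests used scipy 1.17.1 with numpy 2.4.6 and pandas 2.3.3 under Python 3.11.15. Figures used matplotlib 3.10.9. Fisher's exact p-values were adjusted by the Benjamini-Hochberg method over classes and pairs, or over structures and pairs. The calculation was tested on simulated data. The comparison, its classes and the naming rule were chosen with earlier results of these data known. The rule names the 5 leading structures per table, the 5 called higher and 5 called lower by the most points, the leading structure of each called class, and the 3 most used stops of each strand and table. The pooled classes, the range of line 8 and the partners of 3'-strand stops were added after seeing the data. Alternatives changed the reads required, the loss threshold, the strand, the weighting, the most abundant structures and the lines used.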

Additional observations from a re-analysis of the deposited data

How the results depend on the processing

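No paired analysis was possible because each table pools its libraries and carries no replicate numbers. Differences are 53BP1-deficient line B minus the mean of the H2AX-deficient lines, in points of resected ends. Under the alternatives that give both a test and a gap between lines, 3' overhangs of 20 nt or more (4.07 to 8.19), 5' overhangs of 1 to 4 nt (-11.2 to -4.51) and 5' overhangs of 10 nt or more (10.6 to 19.2) kept their call, with these ranges over all alternatives. Under common weights, which give no test, they stayed beyond the gap between lines. 3' overhangs of 1 to 4 nt fell within the gap between lines when weighted to common 5'-strand loss in 20-nt (-6.84) or 10-nt ranges (-6.78) or to common 3'-strand loss (-6.20). 5' overhangs of 5 to 9 nt did so with each structure counted once (0.378), without each table's 10 most abundant structures (3.79), at 10 to 99 nt of loss (3.05) and with common 3'-strand loss (4.14). 5' overhangs of 20 nt or more did so at 50 nt of loss or more (6.24) and with common 3'-strand loss (3.30). Beyond the gap came 5' overhangs of 10 to 19 nt with structures counted once (6.01) and at 10 to 99 nt (8.04), and 3' overhangs of 5 to 9 nt at 10 to 99 nt (-5.66). Causes were not tested. Leaving out line 5 or line 8 leaves no gap between lines to exceed. The differences then ran from -2.93 to 0.182 for blunt ends, from -6.99 to -2.94 for 3' overhangs of 5 to 9 nt, from -5.47 to 1.25 for 3' overhangs of 10 to 19 nt, from 5.55 to 12.2 for 5' overhangs of 10 to 19 nt and from -3.16 to 0.732 for the share of resected ends. Blunt ends, 3' overhangs of 10 to 19 nt and the resected share thus changed direction with the line used. The resected share also turned from -1.21 to 0.756 at 20 nt, 5.35 at 50 nt, 1.59 without each table's 10 most abundant structures and 2.48 with structures counted once. Over all alternatives, structures called lower numbered 50 to 350 and those called higher 451 to 596. With 1 H2AX-deficient line left out, they numbered 347 to 350 and 559 to 596. The median 3' overhang difference was 10.5 nt by reads and 4.5 nt with structures counted once. Depth limits a structure with no read to 0.00176% in line 5, 0.0019% in line 8 and 0.00116% in 53BP1-deficient line B, at 3 reads.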

Other observations

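The 2 H2AX-deficient lines differed from each other in some classes as much as either differed from 53BP1-deficient line B. At 40 to 69 nt of 5'-strand loss, 3' overhangs of 10 to 19 nt held 19.2% of ends in line 5 and 3.51% in line 8, with 4.80% in 53BP1-deficient line B. At 70 to 99 nt they held 18.97%, 1.35% and 5.79%. 36-nt 5' overhangs held 2.02% of resected ends in line 5, 0.133% in line 8 and 0.299% in 53BP1-deficient line B. Several abundant structures were listed in 1 of the H2AX-deficient tables alone. A 5-nt 5' overhang with losses of 148 and 153 nt held 0.977% of reads in line 5. It had no read in line 8 or 53BP1-deficient line B, but held 0.451% in Lig4-/- line B. The 2-nt 3' overhang whose 3'-ending strand lacked 149 nt held 1.13% in line 8 alone. The lines also differ in sequencing run and in the time their titles give, and the part of either in these values was not tested.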
